A study of Mus musculus with 6 samples.

Results

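The aquaporins, the family of membrane channels for water and small solutes, were followed in clear cells, proton-secreting cells of the epididymal epithelium in mice. The epididymis is the duct where sperm gain motility and are stored. The 9 genes described are those whose symbol in the RPKM table was Aqp1, Aqp2, Aqp3, Aqp4, Aqp5, Aqp7, Aqp8, Aqp9 or Aqp11, out of 37578 genes. RPKM is a read count scaled to gene length and library size, a level that can be compared between genes. The series held 3 groups of 2 libraries: clear cells of the caput, the corpus and the cauda, the successive segments from the testis end to the storage end. All came from untreated mice aged 12 weeks that carried an EGFP transgene driven by the promoter of ATP6V1B1, a subunit gene of the proton pump (V-ATPase), and EGFP+ cells were sorted in 2 rounds. Every library was a pool from 12 epididymides, so the spread between the 2 libraries of a region is that between pools and not between animals, and nothing in the labels says that the pools came from separate sets of mice. No group without the transgene and no unsorted tissue was part of the comparisons, so levels are relative between regions.

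Aquaporins sit in membranes as tetramers, and each subunit holds its own pore. Most members pass water, the aquaglyceroporins Aqp3, Aqp7 and Aqp9 also pass glycerol and in part urea, and Aqp11 is an unorthodox member found mainly on the endoplasmic reticulum. In the epididymis fluid is taken up along the duct and sperm become concentrated. Aqp9 is known there chiefly from the apical membrane of principal cells, the main absorptive cells of the epithelium, while clear cells are known for acidifying the lumen.

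Reads assigned to genes numbered 18887128 to 24700717 per library. The labelled cell type was checked with Foxi1, the transcription factor of proton-secreting epithelial cells, and with Atp6v1b1. Foxi1 was at 1050 and 946 RPKM in the caput libraries, at 161 and 162 in those of corpus and at 63 and 84.9 in those of cauda, and Atp6v1b1 was at 178 and 160, 27.5 and 33.7, and 8.56 and 12.5 RPKM. Both genes were present everywhere and fell from region to region along the duct. The summed RPKM of 14 clear cell markers ran from 3670 to 3850 in caput, 1160 to 1360 in corpus and 399 to 508 in cauda, and that of 18 gene rows for 17 principal cell markers from 10000 to 10800, 85800 to 91100 and 137000 to 153000. None of those 17 principal cell markers was at 0 in all 6 libraries. Crisp1, Spink8 and Cd52 were the leading principal cell genes by level in corpus and cauda, and the caput markers Lcn8, Lcn9 and Cst11 ran the other way, with 447 and 1470 RPKM of Lcn8 in caput, where corpus had 0.859 and 0.929 and cauda 0.799 and 1. The second caput library stood apart in the sum of sperm transcripts: the protamine gene Prm1 was at 15.9 and 101 RPKM in the caput libraries, and the summed RPKM of 14 sperm genes was 50.8 to 343 in caput, 9.61 to 66.2 in corpus and 47.9 to 112 in cauda. Not all of the 14 peaked there. Smcp was at 40.3 RPKM in the second caput library, 54.2 in the second corpus library and 86.1 in the second cauda library. Acrv1 was at 0.191 RPKM in the second caput library and 12 in the second cauda library. Results for caput are therefore also given without its second library.

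The promoters of the genes that differed between regions are shown because the members moved in 2 groups: Aqp9 and Aqp11, lowest in caput, and Aqp5 and Aqp8, highest in corpus. Each stretch is the 250 bases before an annotated start, from RefSeq on GRCm38.p6, 5′ to 3′ on the gene's strand. Capitals mark matches to AGAACA, a core of the androgen receptor element, or to TAAACA or CAAACA, cores bound by forkhead factors such as Foxi1, searched on both strands.
Aqp9, first start, chr9:71163290-71163539, minus strand: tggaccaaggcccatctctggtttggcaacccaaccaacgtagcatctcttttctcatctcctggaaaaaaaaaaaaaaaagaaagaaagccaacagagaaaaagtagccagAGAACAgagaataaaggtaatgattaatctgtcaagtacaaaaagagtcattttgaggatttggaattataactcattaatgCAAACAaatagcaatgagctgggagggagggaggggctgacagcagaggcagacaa
Aqp9, second start, chr9:71162634-71162883, minus strand: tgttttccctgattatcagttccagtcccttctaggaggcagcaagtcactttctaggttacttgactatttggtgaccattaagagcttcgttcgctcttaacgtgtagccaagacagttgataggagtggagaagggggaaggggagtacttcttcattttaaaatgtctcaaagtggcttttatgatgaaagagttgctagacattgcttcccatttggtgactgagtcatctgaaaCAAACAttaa
Aqp11, chr7:97738248-97738497, minus strand: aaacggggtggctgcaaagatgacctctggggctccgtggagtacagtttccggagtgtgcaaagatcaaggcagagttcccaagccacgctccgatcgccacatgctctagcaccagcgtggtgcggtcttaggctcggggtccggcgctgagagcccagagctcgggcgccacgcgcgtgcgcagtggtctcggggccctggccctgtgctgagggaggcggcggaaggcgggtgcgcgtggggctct
Aqp5, chr15:99590778-99591027, plus strand: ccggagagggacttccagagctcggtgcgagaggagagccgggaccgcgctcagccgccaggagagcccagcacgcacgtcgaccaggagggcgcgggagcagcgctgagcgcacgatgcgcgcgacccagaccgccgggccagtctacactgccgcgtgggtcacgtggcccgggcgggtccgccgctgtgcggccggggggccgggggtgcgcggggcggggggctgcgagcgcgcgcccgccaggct
Aqp8, chr7:123462044-123462293, plus strand: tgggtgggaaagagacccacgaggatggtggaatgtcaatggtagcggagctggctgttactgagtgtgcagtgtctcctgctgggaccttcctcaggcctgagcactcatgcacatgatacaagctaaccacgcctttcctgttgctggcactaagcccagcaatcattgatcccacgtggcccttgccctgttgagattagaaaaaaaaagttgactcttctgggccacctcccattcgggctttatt
The first Aqp9 window held AGAACA beginning 138 bases and CAAACA beginning 56 bases before the start, and the second held CAAACA beginning 10 bases before its start. The other 3 windows held none of the 3 words. Among 32851 annotated windows of this length, 16.1% held AGAACA, 12% TAAACA and 16% CAAACA on either strand. The windows also differed in base composition: GC content was 40.4% and 41.6% for the Aqp9 starts, 67.2% for Aqp11, 78.4% for Aqp5 and 52.4% for Aqp8, against a median of 52.4% over all windows. CG pairs numbered 1 and 3 for Aqp9, 23 for Aqp11, 38 for Aqp5 and 5 for Aqp8, with a median of 6.

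The libraries of sorted clear cells held much more aquaporin transcript in corpus and cauda than in caput. The summed RPKM of the 9 aquaporins was 11.8 and 11.6 in the caput libraries, 72.2 and 73.9 in those of corpus and 141 and 132 in those of cauda, with no overlap between regions. Aqp9 and Aqp11 together supplied 94.6% and 77.3% of that sum in caput, with 91.7% and 90.5% in corpus and with 98.8% and 99% in cauda. Which of the pair led changed along the duct. Aqp9 was 57.9% and 57.6% of the sum in corpus but 37.4% and 38.8% in cauda, where Aqp11 took 61.4% and 60.2%, against 33.8% and 32.9% in corpus. The ratio of Aqp11 to Aqp9 RPKM was 0.627 and 1.27 in caput, with 0.585 and 0.57 in corpus and with 1.64 and 1.55 in cauda, so the order of the pair was not fixed in caput and was the same in both libraries of the other regions.

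**Figure D1:**
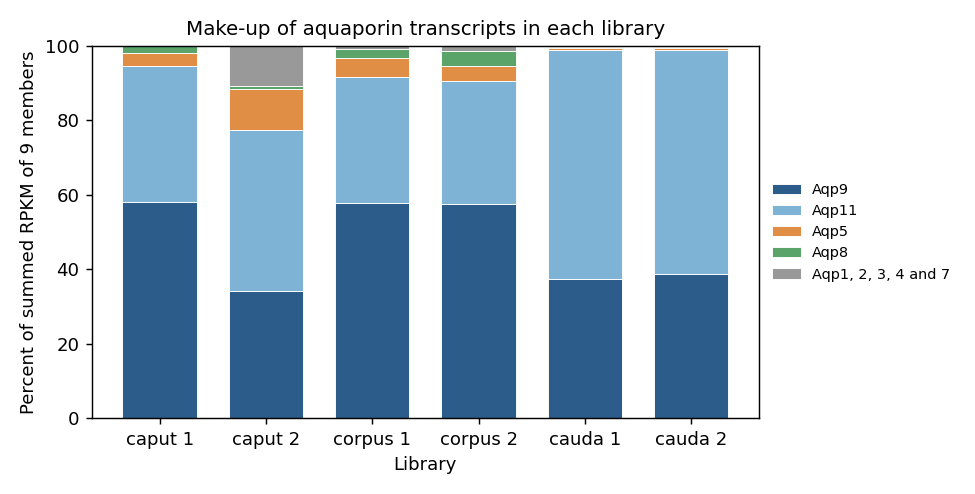
Stacked bars show each aquaporin in percent of the summed RPKM of the 9 genes, 1 bar per library. Aqp9 and Aqp11 fill 98.8% and 99% of the cauda bars, while in the second caput library the 5 sparse genes and Aqp5 widen and the pair fills 77.3%.

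Of the 9 aquaporins, all had at least 1 read, 6 passed the filter on low counts and were tested, and Aqp3, Aqp4 and Aqp7 did not pass. A gene was called when its adjusted p was under 0.05 by edgeR (quasi-likelihood F test, Benjamini-Hochberg over 15816 genes). In the test for any difference among the regions 4 of the 6 were called, Aqp5, Aqp8, Aqp9 and Aqp11, beside 75.1% of all tested genes. In caput against cauda 2 were called lower and 0 higher, where 33% of all tested genes were lower and 33.9% higher, 66.9% in either direction. In corpus against cauda 2 were called higher and 1 lower, where 17.3% of genes were higher and 18% lower, 35.4% in either direction. In caput against corpus 5 were called lower and 0 higher, where 31.8% of genes were lower and 33.2% higher, 65% in either direction. The comparisons share libraries, so these counts are not independent of each other. Most genes differed between caput and the other regions, so a call by itself does not set an aquaporin apart. Without the second caput library 4 were called lower in caput against cauda, where Aqp2 and Aqp5 joined Aqp9 and Aqp11. Without the first, the second library alone stood for caput, and Aqp7 had 40 reads in it against 0 in the first. The log2 difference of Aqp1 was then 3.04 in caput against cauda. That of Aqp7 was 2.98 in caput against cauda and 4.54 in caput against corpus. In that comparison 6 were called lower without the second caput library. The median log2 fold change of the 6 tested aquaporins was -1.29, 1.32 and -2.74 in the 3 comparisons, beside 0.04, 0 and 0.04 over all tested genes. With library totals in place of TMM, a scaling factor per library, the median gene moved to 0.9, 0.27 and 0.63, and that of the 6 aquaporins to -0.44, 1.58 and -2.15. With the trend on gene length removed, the aquaporin medians were -0.77, 1.38 and -2.23. Under library totals, genes called higher and lower numbered 9501 and 2564 in caput against cauda, in place of 5363 and 5218. For corpus against cauda the split became 5154 and 1735 in place of 2742 and 2850, and for caput against corpus 8438 and 2972 in place of 5246 and 5029. Fold changes below are thus relative to the bulk of genes.

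Aqp9 (ENSMUSG00000032204), the broad aquaglyceroporin that passes water, glycerol and urea, was low in caput and high in the rest of the duct. It was at 6.86 and 3.95 RPKM in the caput libraries, at 41.8 and 42.6 in those of corpus and at 52.7 and 51.4 in those of cauda. Both caput libraries lay far below all others, and both corpus libraries lay below both cauda libraries. The gene had 1285 and 649 reads in caput, with 4315 and 4876 in corpus and with 5262 and 5467 in cauda, so counting error was small beside the spread of the caput pair. On the log2 scale ± SE Aqp9 fell by 3.33 ± 0.25 in caput against cauda, which is 10.1-fold (adjusted p = 0.000112, edgeR). In caput against corpus it fell by 3.03 ± 0.25, or 8.17-fold (adjusted p = 0.00018, edgeR). The log2 difference was -0.31 ± 0.23 in corpus against cauda, which was not called (adjusted p = 0.365, edgeR). That small difference was called, at -0.31 to -0.29, without either caput library or with only the corpus and cauda libraries in the fit (adjusted p of 0.0102, 0.00982 and 0.0118). Under library totals it was -0.04. Without the second caput library, the lower of the pair for Aqp9, the log2 difference was -3 in caput against cauda and -2.69 in caput against corpus.

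Aqp9 moved opposite to the sum of the clear cell markers and together with that of the principal cell markers, both given above as ranges. Caput against corpus had 13 clear cell markers called higher and 1, Car2, lower, beside 33.2% and 31.8% of all tested genes. Among the principal cell rows, 9 of 18 were called higher and 8 lower in caput against cauda, beside 33.9% and 33% of all tested genes. The same rows gave 7 higher and 9 lower in caput against corpus, beside 33.2% and 31.8%. The part of principal cell transcripts in the Aqp9 levels was not tested. In bulk RNA fewer cells of a type and less RNA per cell cannot be told apart. Reads were counted without regard to strand, and in GENCODE an antisense gene and a pseudogene, neither listed in the deposited table, lie across Aqp9, so reads from both strands cannot be told apart.

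Aqp11 (ENSMUSG00000042797), linked in mouse to the endoplasmic reticulum and to kidney cysts when lost, rose stepwise along the duct. Its level was 4.3 and 5.01 RPKM in the caput libraries, 24.5 and 24.3 in those of corpus and 86.4 and 79.6 in those of cauda. The 3 regions were fully separated, and the 2 libraries of each region lay close together. Aqp11 was 18.6-fold lower in caput than in cauda, a log2 difference of -4.22 ± 0.12 (adjusted p = 7.23e-09, edgeR). It was 3.41-fold lower in corpus than in cauda, at -1.77 ± 0.1 (adjusted p = 2.44e-06, edgeR), and 5.46-fold lower in caput than in corpus, at -2.45 ± 0.12 (adjusted p = 1.57e-07, edgeR). All 3 calls held under every alternative run, including library totals, where the differences were -3.36, -1.5 and -1.86. Without the second caput library they were -4.35, -1.77 and -2.57. The corpus to cauda step set the pair apart: Aqp11 was called there in every alternative run, whereas Aqp9 was called in 3 of 15. The difference between the 2 genes' steps was not itself tested. The clear cell markers ran opposite to Aqp11 as well. The summed RPKM of 10 leukocyte markers was 3.93 to 5.19 in caput, 5.12 to 5.7 in corpus and 80.2 to 136 in cauda. The cauda sum was nearly all S100a8, at 131 and 75.2 RPKM, a gene at 0.142 RPKM or below in caput and corpus. The pan-leukocyte gene Ptprc was at 0.63 RPKM or below in every library. Itgam, a myeloid integrin of that list, ran in the order of Aqp11, at 0.117, 0.191 and 1.96 RPKM on average in caput, corpus and cauda. Ptprc and Cx3cr1 ran the other way, at 0.484, 0.338 and 0.172 and at 0.325, 0.131 and 0.059 RPKM. Among the 10 leukocyte markers 7 were tested. Of these, 2 were called higher and 2 lower in caput against cauda, beside 33.9% and 33% of all tested genes. Of 12 smooth muscle and stroma markers, all tested, 1 was called higher and 6 lower in caput against cauda, beside 33.9% and 33% of all tested genes. Corpus against cauda had 0 of these markers higher and 4 lower, beside 17.3% and 18% of all tested genes. The summed RPKM of these markers, mostly Dcn, was 315 to 333 in caput, 74.3 to 80.7 in corpus and 206 to 250 in cauda. Col1a1 averaged 0.184, 0.34 and 1.16 RPKM. The fat cell markers Plin1 and Adipoq rose, averaging 0.016, 0.716 and 1.45 and 0, 0.0382 and 0.518 RPKM. Cidec instead peaked in corpus, at 0.086, 0.685 and 0.145 RPKM, and Retn fell, at 0.0789, 0.017 and 0. The part of other cells' transcripts in the Aqp11 levels was not tested.

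**Figure D2:**
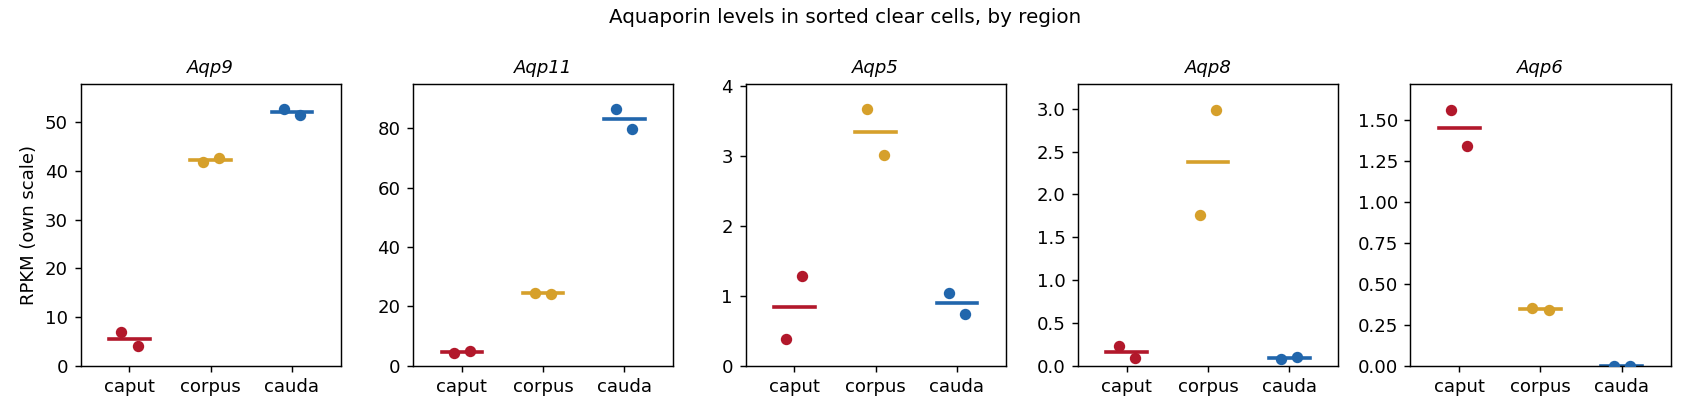
Points show the RPKM of each library and bars the mean of the 2 libraries of a region, on a linear axis with its own scale for each gene. Aqp9 and Aqp11 are lowest in caput, Aqp5 and Aqp8 are highest in corpus, and Aqp6 falls from caput to 0 in cauda.

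Aqp8 and Aqp5 were called higher in corpus than in both other regions, at levels far below Aqp9. Aqp8 (ENSMUSG00000030762), a channel for water that also passes ammonia and hydrogen peroxide, was at 0.233 and 0.0887 RPKM in the caput libraries, at 1.76 and 2.99 in those of corpus and at 0.0729 and 0.103 in those of cauda. Corpus stood apart from both other regions, which overlapped. In reads, Aqp8 had 12 and 4 in caput, with 50 and 94 in corpus and with 2 and 3 in cauda. The log2 difference was 4.7 ± 0.65 in corpus against cauda (adjusted p = 0.000446, edgeR) and -3.9 ± 0.56 in caput against corpus (adjusted p = 0.000209, edgeR). From summed reads alone, the corpus level was 27.2 times that in cauda, with a 95% counting interval of 11.4 to 85.1, and 15.2 times that in caput, with an interval of 9.03 to 27.3. Caput against cauda was not called (log2 difference 0.8 ± 0.76, adjusted p = 0.377, edgeR). Without the second caput library the caput to corpus difference was -3.4 (adjusted p = 0.000355, edgeR).

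Aqp5 (ENSMUSG00000044217), a water channel of secretory glands and lung, was at 0.387 and 1.28 RPKM in the caput libraries, at 3.68 and 3.02 in those of corpus and at 1.04 and 0.746 in those of cauda. Corpus again lay above all other libraries, and the caput pair spanned the cauda pair. Aqp5 was 3.73-fold higher in corpus than in cauda, a log2 difference of 1.9 ± 0.52 (adjusted p = 0.0212, edgeR). Between caput and corpus it was 4.2-fold lower in caput, at -2.07 ± 0.51 (adjusted p = 0.00654, edgeR). Caput against cauda gave -0.16 ± 0.54 and was not called (adjusted p = 0.802, edgeR); under library totals its sign turned, to 0.7. The corpus to cauda call did not hold with any 1 of the 4 libraries of those regions left out, where the adjusted p ran from 0.0762 to 0.15. Without the second caput library, Aqp5 was called lower in caput than in cauda, at -1.27 (adjusted p = 0.0274, edgeR), and the caput to corpus difference was -3.17. That difference was -1.42 without the first caput library (adjusted p = 0.00572, edgeR). Beside Aqp5 and Aqp8, the summed RPKM of 12 endothelial markers was 8.09 to 10.3 in caput, 46.8 to 52.8 in corpus and 7.75 to 8.74 in cauda, most of it Egfl7 and Esam in corpus. Of the 12, 9 were tested, and 2 were called higher and 0 lower in corpus against cauda, beside 17.3% and 18% of all tested genes. For caput against corpus the counts were 2 higher and 3 lower, beside 33.2% and 31.8%. Cdh5, the cadherin that defines endothelium, was at 0 RPKM in 5 libraries and 0.081 in the second cauda library.

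**Figure D3:**
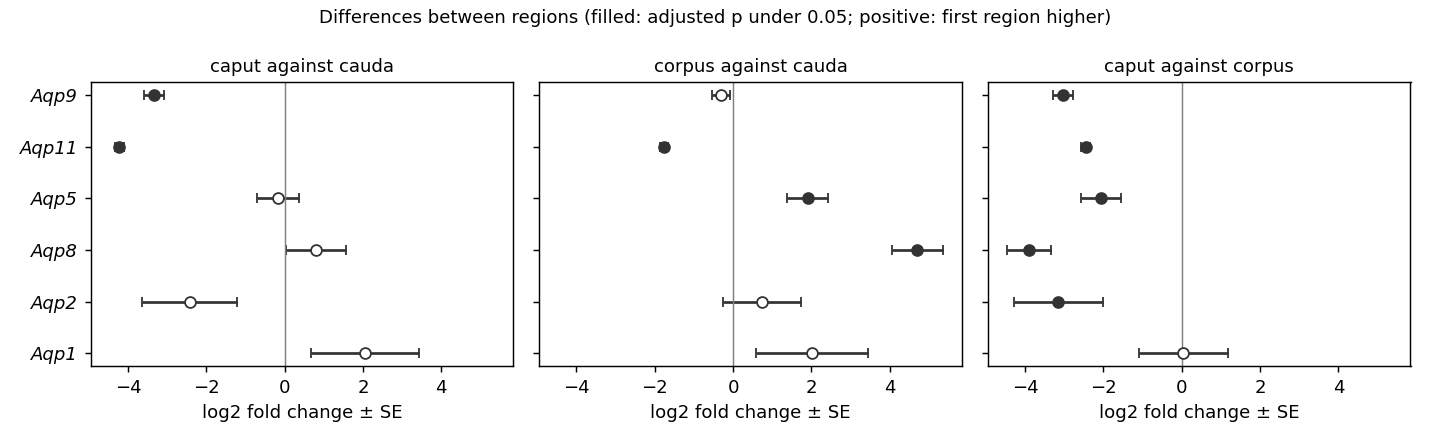
Log2 fold changes ± SE are shown for the 6 tested aquaporins in each comparison, positive where the first region is higher, with filled points for adjusted p under 0.05. Aqp9 and Aqp11 lie near -3.33 and -4.22 in caput against cauda, and Aqp8 reaches 4.7 in corpus against cauda.

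Aqp6, an anion-conducting family member of intracellular vesicles that lies outside the 9, ran opposite to Aqp9 and Aqp11. Its level was 1.56 and 1.34 RPKM in the caput libraries, 0.35 and 0.34 in those of corpus and 0 and 0 in those of cauda. Caput held 184 reads, corpus 27 and cauda 0. Measured against a floor of 3 reads over the region, Aqp6 was at least 34.4-fold higher in caput than in cauda and at least 8.51-fold higher in corpus than in cauda. In caput against corpus it was higher by 2 ± 0.42 on the log2 scale, or 4-fold (adjusted p = 0.00297, edgeR). Foxi1, by comparison, was 12.9-fold higher in caput than in cauda and 5.94-fold higher in caput than in corpus. Aqp2, Aqp5 and Aqp6 lie next to each other on chromosome 15 in RefSeq on GRCm38.p6, with no other protein-coding gene between them, yet Aqp6 was highest in caput and Aqp5 in corpus. The other family genes, Mip and Aqp12, had 0 reads in every library.

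The remaining 5 aquaporins were represented by at most 40 reads in any library. Aqp2, the vasopressin-regulated water channel of the kidney collecting duct, had 0 and 5 reads in the caput libraries, with 8 and 21 in those of corpus and with 13 and 3 in those of cauda. It was lower in caput than in corpus by the test (log2 difference -3.15 ± 1.14, adjusted p = 0.0373, edgeR). By counting alone, the corpus level was 9.78 times that in caput, with an interval of 3.74 to 32.4. The call did not hold under library totals, DESeq2 or the length correction, nor with 5 of the 6 libraries left out singly, with adjusted p between 0.0521 and 0.271 in those settings. Without the second caput library Aqp2 was called lower in caput in both comparisons. Corpus against cauda, at 0.73 ± 0.99, was not called (adjusted p = 0.611, edgeR).

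Aqp1, the constitutive water channel of red cells, endothelium and the efferent ducts, had 1 and 35 reads in the caput libraries, with 10 and 12 in those of corpus and with 2 and 3 in those of cauda. The 2 caput libraries lay on either side of all the others. No comparison of Aqp1 was called, with log2 differences of 2.05 ± 1.38 in caput against cauda, 2.01 ± 1.43 in corpus against cauda and 0.04 ± 1.13 in caput against corpus (adjusted p of 0.225, 0.324 and 0.979, edgeR). The caput library that was left out decided the sign: the caput to cauda difference was 3.04 without the first and -2.06 without the second. With only the 4 corpus and cauda libraries in the fit, Aqp1 was called higher in corpus than in cauda, at 2.02 (adjusted p = 0.0349, edgeR). Some endothelial markers were also higher in the second caput library than in the first: Pecam1 was at 0.0698 and 0.319 RPKM, Kdr at 0.0459 and 0.199, Flt1 at 0.0237 and 0.127, and Emcn at 0 and 0.229. Others of that list were not: Vwf was level at 1.57 and 1.59 RPKM, Tek fell from 0.018 to 0, and Cdh5 was at 0 in both caput libraries. Of the 8 red cell genes, Hba-a2, Hbb-b2 and Slc4a1 were at 0 in all 6 libraries, Hba-a1 was highest in the second caput library at 0.187 RPKM, and the summed RPKM was 1.54 to 1.84 in caput, 15.6 to 17.7 in corpus and 1.41 to 2.03 in cauda. That sum was nearly all Alas2, at 15.5 and 17.6 RPKM in corpus. The part of these cells' transcripts in the Aqp1 reads was not tested.

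Aqp7, the glycerol channel of fat cells that is also known from testis and sperm, had 0 and 40 reads in the caput libraries, with 1 and 1 in those of corpus and with 1 and 5 in those of cauda. Its reads were thus almost all in the caput library with the most sperm transcripts. Aqp3, an aquaglyceroporin of basolateral membranes and of basal cells, had 0 and 7 reads in caput, with 0 and 0 in corpus and with 0 and 3 in cauda. Aqp4, a water channel of astrocytes and of basolateral membranes, had 0 and 7 reads in caput, with 1 and 2 in corpus and with 4 and 6 in cauda. These 3 genes did not pass the filter with all 6 libraries in the fit, and no fold change is given for them there. The basal cell keratin Krt5, for comparison, was at 16.2 and 23.2 RPKM in caput, with 4.58 and 2.4 in corpus and with 5 and 2.71 in cauda. Of 10 basal cell markers 9 were tested. In caput against corpus 6 were called higher and 1 lower, beside 33.2% and 31.8% of all tested genes. The 1 lower was Itga6, at 1.64 and 1.97 RPKM in caput and 4.47 and 5.13 in corpus. The summed RPKM of 6 fat cell markers was 0.167 to 0.267 in caput, 1.32 to 1.59 in corpus and 1.88 to 2.43 in cauda. Of these, Adipoq was at 0 RPKM in both caput libraries, Lep was at 0.0727 RPKM in the second caput library and at 0 in all others, and Retn was highest in caput at 0.0936 and 0.0641 RPKM. The second caput library held the most reads of Aqp1, Aqp3, Aqp4 and Aqp7, and the part of sperm, fat cell or other transcripts in them was not tested.

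**Figure D4:**
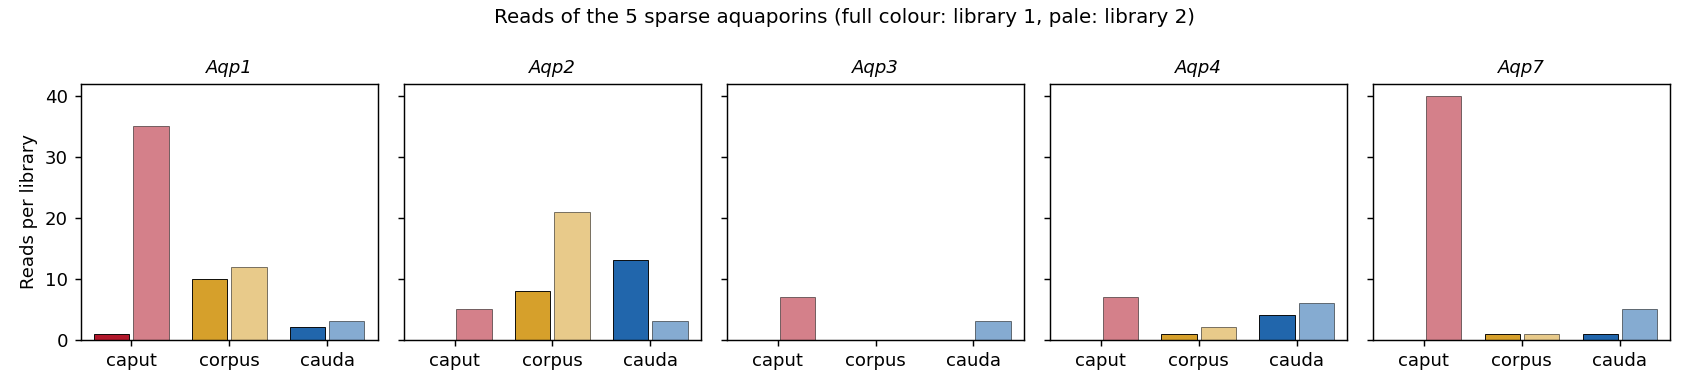
Bars give the reads of the 5 sparse aquaporins in each library, with the first library of a region in full colour and the second pale. Aqp1 and Aqp7 reach 35 and 40 reads in the second caput library, against 1 and 0 in the first.

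Within a region the order of levels among the 9 was as follows. In caput Aqp9, at 5.41 ± 2.05 RPKM (SD, n = 2 here and below), and Aqp11, at 4.65 ± 0.506, did not differ beyond their spread, and Aqp5 followed at 0.835 ± 0.634. In corpus Aqp9 at 42.2 ± 0.549 was above Aqp11 at 24.4 ± 0.128, then Aqp5 at 3.35 ± 0.47 and Aqp8 at 2.37 ± 0.865, whose libraries came within their spread of each other, with 3.02 RPKM of Aqp5 and 2.99 of Aqp8 in the second library. In cauda Aqp11 at 83 ± 4.84 was above Aqp9 at 52 ± 0.96, and Aqp5 came next at 0.892 ± 0.206. Apart from Aqp9, Aqp11, Aqp5 and the corpus Aqp8, every one of the 9 was below 1 RPKM in every library.

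The genes with the most similar course over the 6 libraries were looked up for each aquaporin that differed, by the root mean square distance between centred log2 values, among genes with a mean of at least 10 CPM (library-scaled reads). Nearest to Aqp9 were Ranbp3l at a distance of 0.1, Slc35f2 at 0.11 and Lipg, an endothelial-type lipase, at 0.12. Slc35f2 was at 27.7 ± 7.54 RPKM in caput, 235 ± 1.72 in corpus and 313 ± 4.4 in cauda. Like Aqp9 it had a wide caput pair and a smaller step from corpus to cauda than from caput to corpus. Nearest to Aqp11 were Tmem97, a sterol-related membrane protein of the endoplasmic reticulum, at 0.1, the myoglobin gene Mb at 0.12 and Cyp4a12b, a fatty acid hydroxylase, at 0.17. Mb was at 4.08 ± 0.402 RPKM in caput, 21.2 ± 3.03 in corpus and 64.8 ± 9.14 in cauda. For Aqp8 the nearest were Cyp17a1, a steroid hydroxylase, at 0.24, Glb1l3 at 0.27 and Lgi2 at 0.28. Cyp17a1 was at 13.1 ± 2.99, 131 ± 18.8 and 9.44 ± 0.0425 RPKM in caput, corpus and cauda. For Aqp5 they were Syt12 at 0.41, Ttl at 0.45 and Srd5a2, a steroid 5-alpha-reductase, at 0.47. The best matches of the 2 corpus-high genes were thus looser than those of Aqp9 and Aqp11. Aqp8 and Aqp5 also had far fewer reads, and counting error widens such a distance. The part of counting error in the looser matches was not tested.

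Of 14 genes that make, store or use glycerol, the solute that aquaglyceroporins pass, 13 were tested and all 13 differed among regions, beside 75.1% of all tested genes. In caput against cauda 6 were higher and 4 lower, in corpus against cauda 6 higher and 2 lower, and in caput against corpus 6 higher and 6 lower, beside the shares of all genes given above for each comparison. The median log2 differences were 0.24, 0.25 and 0.07. Gyk, the glycerol kinase that traps glycerol in the cell, was at 5.58 and 5.95 RPKM in the caput libraries, at 36.2 and 42.5 in those of corpus and at 22.5 and 26.6 in those of cauda. It was lower in caput than in cauda by 2.15 ± 0.11 on the log2 scale (difference -2.15, adjusted p = 2.62e-07, edgeR) and higher in corpus than in cauda by 0.68 ± 0.11 (adjusted p = 0.00115, edgeR). Like Aqp9 it was lowest in caput, but it was higher in corpus than in cauda. Dgat2, which joins the last acyl chain in triglyceride synthesis, followed the same order with 10.3 ± 1.25, 54.3 ± 1.11 and 30 ± 2.76 RPKM in caput, corpus and cauda. Pgp, the phosphatase that releases glycerol from glycerol 3-phosphate, was at 92.3 ± 7.5, 293 ± 15.9 and 251 ± 28.1 RPKM, with corpus and cauda not called apart (adjusted p = 0.126, edgeR). Pnpla2, the lipase that starts triglyceride breakdown, was highest in caput at 66.2 ± 2.27 RPKM, then 38.9 ± 1.07 in corpus and 32.5 ± 1.62 in cauda. Gpd2, the mitochondrial glycerol 3-phosphate dehydrogenase, was at 6.42 ± 0.228 RPKM in caput, 2.59 ± 0.298 in corpus and 2.48 ± 0.0614 in cauda. With library totals the split in caput against cauda became 9 higher and 4 lower, in corpus against cauda 10 and 1, and in caput against corpus 7 and 4. All 15816 tested genes split into 9501 and 2564, 5154 and 1735, and 8438 and 2972 in that setting.

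For urea, the other solute of Aqp9, 3 of 4 genes were tested and all 3 differed, beside 75.1% of all tested genes. Each had its own course. The urea transporter Slc14a1 was at 9.39 and 7.21 RPKM in the caput libraries, at 1.25 and 1.48 in those of corpus and at 0.035 and 0.0766 in those of cauda. It was higher in caput than in cauda by 7.11 ± 0.29 (adjusted p = 4.99e-08, edgeR) and higher in corpus than in cauda by 4.57 ± 0.33 on the log2 scale (adjusted p = 8.47e-06, edgeR). Its paralogue Slc14a2 was instead highest in corpus, with 1.69 and 1.26 RPKM in caput, 11.8 and 14.7 in corpus itself and 3.43 and 3.79 in cauda. Arg2, the mitochondrial arginase that forms urea from arginine, was at 9.01 and 9.31 RPKM in caput, with 30.3 and 31.4 in corpus and with 80.3 and 72.3 in cauda. Arg2 therefore ran in the order of Aqp11, and its difference was -3.12 ± 0.1 in caput against cauda (adjusted p = 1.32e-08, edgeR). Arg1, the cytosolic arginase, was below the filter.

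**Figure D5:**
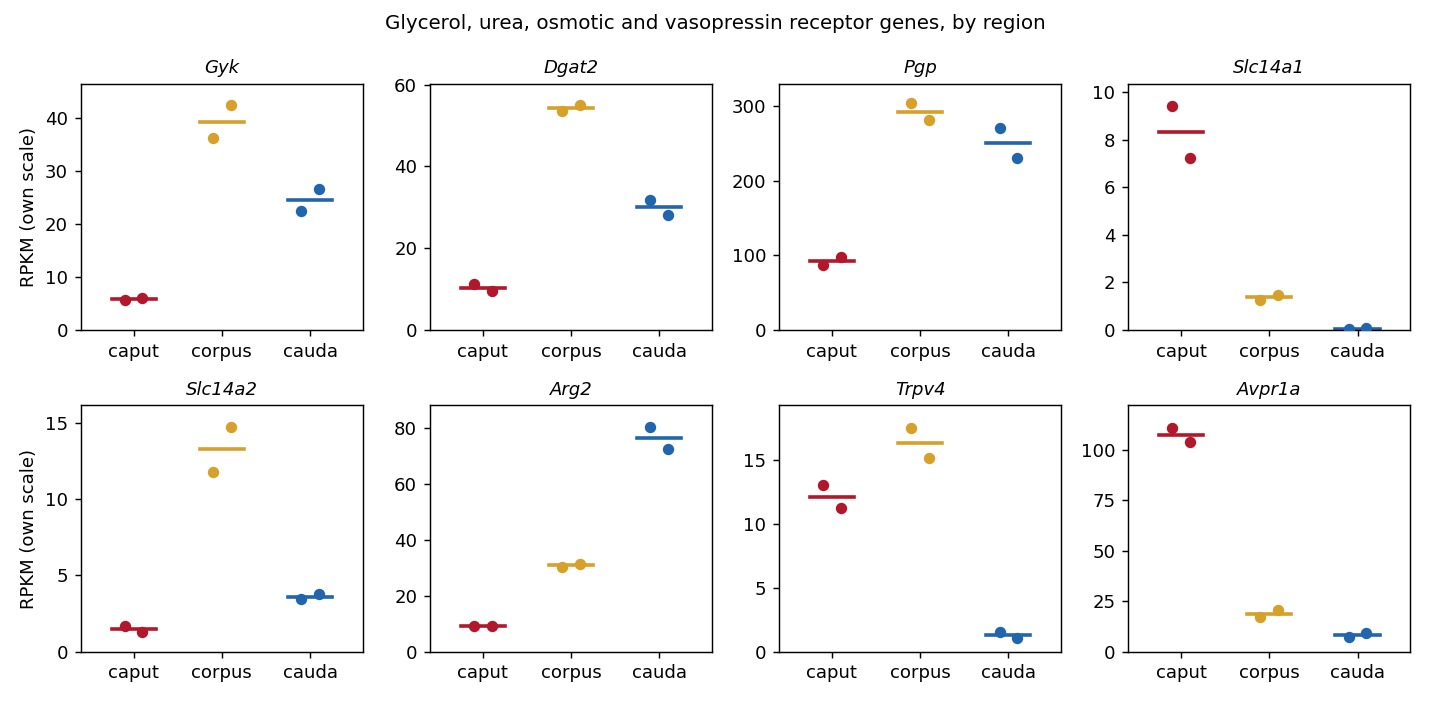
Points show the RPKM of each library and bars the mean of the region for 8 genes of glycerol, urea, osmotic and vasopressin receptor function, on linear axes with their own scales. Gyk, Dgat2 and Slc14a2 peak in corpus, Slc14a1 and Avpr1a in caput, and Arg2 in cauda, where it reaches 80.3 RPKM.

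Genes of osmotic response and cell volume control govern the solute flows that water follows. Most of those tested were called higher in caput than in cauda or corpus, where Aqp9 and Aqp11 were lower. Between corpus and cauda their median was near level, unlike Aqp11. This list of 21 genes filled 22 rows, because Wnk1 has 2 identifiers, and 21 rows were tested, of which 19 differed among regions, beside 75.1% of all tested genes. In caput against cauda 16 were higher and 3 lower, beside 33.9% and 33% of all tested genes. Corpus against cauda had 5 higher and 4 lower, beside 17.3% and 18%. Caput against corpus had 15 higher and 2 lower, beside 33.2% and 31.8%. The median log2 differences of the list were 1.26, 0.05 and 0.88. Library totals moved these splits to 19 and 0, 7 and 3, and 18 and 0, and moved those of all tested genes toward higher too, as given above. The clear cell markers moved the same way, with 14 of 14 called higher in caput against cauda. Against corpus 13 were called higher in caput and 1 lower. The part of clear cell transcripts in the osmotic genes was not tested. With the trend on gene length removed, the split was 12 higher and 4 lower in caput against cauda, with a median of 0.69, and 13 higher and 4 lower in caput against corpus, with a median of 0.54. Lrrc8c and Lrrc8d, subunits of the volume-regulated anion channel, were at 6.04 ± 0.173 and 6.9 ± 0.489 RPKM in caput. They were at 2.03 ± 0.0585 and 0.909 ± 0.14 RPKM in corpus and only 0.375 ± 0.0576 and 0.366 ± 0.138 RPKM in cauda. Trpv4, an osmotically gated cation channel, was at 13 and 11.2 RPKM in caput, with 17.5 and 15.1 in corpus and with 1.52 and 1.07 in cauda. It was higher in caput than in cauda by 3.17 ± 0.16 (adjusted p = 2.84e-07, edgeR). Slc38a2, an amino acid transporter induced in hypertonic cells, was at 28.8 ± 1.3, 17.3 ± 1.25 and 9.46 ± 0.385 RPKM in caput, corpus and cauda. Stk39, the kinase SPAK that acts on cation chloride cotransporters, was at 18.7 ± 0.0487, 8.59 ± 0.224 and 14.7 ± 0.0844 RPKM.

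Of 22 genes for the trafficking and turnover of aquaporins, known best from Aqp2 in the kidney, 21 were tested and 19 differed among regions, beside 75.1% of all tested genes. In caput against cauda 10 were higher and 7 lower, in corpus against cauda 11 higher and 2 lower, and in caput against corpus 10 higher and 7 lower, with medians of 0.22, 0.38 and 0.24. Of all tested genes 33.9% were higher and 33% lower in the first comparison, 17.3% and 18% in the second, and 33.2% and 31.8% in the third, so the counts alone do not set this list apart. With library totals the split became 18 and 2, 12 and 2, and 13 and 3, in a setting that moved all tested genes toward higher too, as given above. The vasopressin receptor Avpr1a was at 111 and 104 RPKM in the caput libraries, at 17.2 and 20.4 in those of corpus and at 7.33 and 9.43 in those of cauda. It was higher in caput than in cauda by 3.61 ± 0.14 on the log2 scale (adjusted p = 5.68e-08, edgeR), a course like that of Foxi1. Avpr2, the receptor that drives Aqp2 to the membrane in the collecting duct, was below the filter, at 0.01 and 0.0114 RPKM in caput, with 0.0545 and 0.0491 in corpus and with 0 and 0 in cauda. Nedd4l, a ubiquitin ligase, was at 23.1 ± 1.35 RPKM in caput, 4.37 ± 0.175 in corpus and 5.07 ± 0.136 in cauda. Prkar2a, a regulatory subunit of protein kinase A, was at 17.3 ± 0.455, 8.39 ± 0.122 and 6.42 ± 0.477 RPKM. The scaffold Slc9a3r1 (NHERF1) was highest in cauda, with 174 ± 13 RPKM in caput, 245 ± 10.5 in corpus and 722 ± 19.9 in cauda. Vamp8, a vesicle fusion protein, was at 76.7 ± 2.29, 215 ± 10.4 and 169 ± 12.4 RPKM. Leaving out the second caput library moved no split of the glycerol, urea, osmotic or trafficking lists by more than 1 gene in either direction. Without the second cauda library, the trafficking genes called higher in corpus against cauda numbered 7 in place of 11. Without either corpus library, the glycerol genes called higher in caput against corpus numbered 4 in place of 6. The glycerol genes called lower in corpus against cauda numbered 1 in place of 2 without any 1 library of those regions. The osmotic genes called lower in caput against corpus numbered 0 without the first corpus library and 1 without the second caput library, in place of 2.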

How the data were processed

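The authors deposited 1 file of whole-number counts per library and an RPKM table that also lists gene lengths in bases. The submitters' processing notes name STAR, HTSeq, edgeR and the build mm9; their versions are not given in the sources used for this text. Counting ignored strand, per the names of the deposited count files. Dividing those counts by gene length and a scaled library size returns the deposited RPKM. Rows naming no gene were left out of the tests: no feature was 6.67% to 9.48% of records, ambiguous 1.39% to 1.83% and not unique 33.1% to 38.6%. Reads that near-identical genes share are lost there.

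Counts were tested with edgeR 4.0.16 in R 4.3.3 on all 6 libraries: filterByExpr by region, TMM scaling, robust quasi-likelihood F tests, two-sided, Benjamini-Hochberg adjustment over 15816 genes, threshold 0.05. The SE is the fold change divided by the root of F and is approximate. The spread behind each p-value is that between pools, which may be technical. The 2 libraries of a region differed beyond sampling noise (chi-square per degree of freedom 17.18 in caput, 9.569 in corpus and 12.17 in cauda). Intervals of 95% are exact binomial and, like the floor of 3 reads, cover counting error only, since no molecular identifiers were used. Replicate numbers paired no samples by the labels. The fit was tested on simulated data.

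The 9 members, the gene lists and the rules were chosen with earlier results of these data known. Named beside the members are Foxi1, Atp6v1b1 and up to 5 genes per list with the smallest adjusted p for any difference, plus 3 nearest genes per called member; marker genes of other cells were named after their values were seen. Lists were described by counts, with no set test. Alternatives were other scalings, no filter, DESeq2 1.42.0, limma 3.58.1 on log2 of the deposited RPKM plus 0.1 or 1, a replicate block, a correction for gene length, only the libraries compared, unscaled reads per kilobase, and each library left out. Protein sequences were not used here. Promoter windows are RefSeq's on GRCm38.p6, not the build of the counts, and were found for 8 of the 9 members.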

Additional observations from a re-analysis of the deposited data

How the results depend on the processing

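In 14 or 15 alternatives a comparison, Aqp9 was called lower in caput than in cauda (log2 difference -3.76 to -2.48) and than in corpus (-3.46 to -2.44) in every one, Aqp11 in all 3 comparisons, and Aqp8 higher in corpus than in cauda (1.61 to 5.04) and lower in caput than in corpus (-4.73 to -1.52). Leaving out 1 library moved the aquaporins called higher in caput against cauda between 0 and 2 and those called lower between 2 and 4, in corpus against cauda between 1 and 2 in each direction, and in caput against corpus those called higher between 0 and 1. Where this left a single library in a region, it was assumed to vary like the others. With only the 4 libraries compared, 2 were called lower in corpus against cauda.

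Signs turned only where the main comparison was not called. With 1 library left out, the log2 differences in caput against cauda ran from -2.06 to 3.04 for Aqp1, -1.27 to 0.48 for Aqp5 and -0.04 to 1.29 for Aqp8, in corpus against cauda from -0.03 to 2.18 for Aqp2, and in caput against corpus from -4.07 to 1.03 for Aqp1. The turned signs in caput against cauda were those of Aqp1 without the second caput library (-2.06), Aqp5 with library totals (0.7), with the length trend removed (0.28), without the first caput library (0.48) and without the first cauda library (0.1), and Aqp8 without the first caput library (-0.04). In corpus against cauda it was Aqp2 without the second corpus library (-0.03). In caput against corpus it was Aqp1 with the replicate block (-0.49), without the second caput library (-4.07), without the first corpus library (-0.02), and with limma on log2 RPKM plus 0.1 (-0.35) or plus 1 (0). The cause was not tested. In the test for any difference Aqp5 lost its call without the first corpus library (adjusted p = 0.0663, edgeR).

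The replicate numbers are not stated to mark a shared batch. Deviations of libraries with the same number correlated at 0.19 for caput and corpus, 0.16 for caput and cauda and 0.13 for corpus and cauda, with 2 pairs each. With the replicate block 10850, 6090 and 10633 genes were called in the 3 comparisons, against 10581, 5592 and 10275 without it, and no aquaporin gained or lost a call. The number of genes called stayed within 1.5 times under every alternative, from 8885 to 10346, 3767 to 6026 and 8424 to 9982 with a library left out. Depth limits Aqp1, Aqp2, Aqp3, Aqp4 and Aqp7, with at most 40 reads in a library.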
